A study of Homo sapiens with 10 samples.

Results

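The acute phase proteins of the liver and the lipocalin LCN2 are described here in HepG2 cells, a human hepatoma line, under tunicamycin. The 10 genes are LCN2, SAA1, SAA2, SAA4, HP, ORM1, ORM2, CRP, LBP and HPX, out of 32738 genes in the count table. They were listed by name, but they were selected with their measured values in the comparison of tunicamycin with control already known, so their differences are given as a description and no p-value is attached to them. Tunicamycin blocks N-linked glycosylation and thereby causes ER stress. The control cells received regular growth medium, the treated cells received medium with 2 µg/ml tunicamycin, and both were harvested after 17 h. Each condition has 5 libraries from replicate experiments done on separate days, and each library counts 3′ ends of polyadenylated RNA.

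The acute phase response is the change in plasma protein output by which hepatocytes answer inflammation. IL-6 type cytokines act through STAT3, and IL-1 and TNF through NF-kB, and both pathways work together with C/EBP factors at the promoters of acute phase genes. Positive acute phase proteins rise in plasma during inflammation and negative ones, such as albumin and transthyretin, fall. The liver-enriched factor CREB3L3, which is cleaved and activated under ER stress, connects this response to the ER.

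In HepG2 cells exposed to tunicamycin, LCN2 went from at most 3 counts per library to between 34 and 80, whereas SAA4 fell to 32.7% of its control level. HP and HPX were also lower, ORM1 and ORM2 were within 1.3-fold of control, and SAA1, SAA2, CRP and LBP were at or near 0 in both conditions. Over all 12733 genes tested, 34.2% were called at an adjusted p under 0.05 (edgeR's quasi-likelihood test, Benjamini-Hochberg), with 17.6% of the tested genes higher and 16.6% lower. Among the 10 members, 6 had enough counts to be tested and 5 of these met that threshold, with LCN2 and ORM1 higher and SAA4, HP and HPX lower. The groups did not overlap for 2 of the 6, LCN2 and SAA4, and did not overlap for 23.5% of all tested genes. Since the members were selected on this comparison, nothing is read from these counts. In bulk RNA, fewer cells expressing a gene and less RNA per cell cannot be told apart.

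Library totals were 4242538 to 4888292 counts in control and 2234682 to 5029864 in tunicamycin, where replicate 5 was the smallest library. Values are given as normalized counts, that is counts divided by the TMM-scaled library size and multiplied by the mean library size. A count of 3 corresponded to 2.53 to 6.05 normalized counts depending on the library. With scaling by library size only, 40.8% rather than 51.4% of the called genes were higher, and the median log2 fold change of all tested genes was -0.083 rather than -0.0033. Each transcript gives about 1 counted fragment at its 3′ end, so counts were not divided by transcript length. All 9 hepatocyte markers were expressed, and their sum was 65293 to 84033 normalized counts in control and 52238 to 58674 in tunicamycin. The lower sum did not hold for every marker. APOB (mean 32551 in control and 18979 in tunicamycin), APOA1 (8973 and 4781), TF, FGB and TTR were called lower. ALB, SERPINA1, HNF4A and AFP were not called, with log2 fold changes of 0.04, 0.08, 0.26 and -0.16. Of 8 leukocyte markers, 7 were at 0 in every library, including the neutrophil genes MPO, ELANE and LTF, and the sum was 16.6 to 35.3 in control and 10.1 to 26.1 in tunicamycin, all of it from CD68. The 5 mesenchymal markers summed to 109 to 165 in control and 55.7 to 176 in tunicamycin, nearly all of it from ACTA2, with DCN at 0 in every library. Of 3 endothelial markers 2 were found in the table, and their sums were 0 to 1.02 in control and 0 to 24.7 in tunicamycin. The value of 24.7 came from 18 counts of CDH5 in tunicamycin replicate 4, and CDH5 was at 0 in every other library.

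By the GENCODE annotation of GRCh38, whereas the counts were made on hg19, several members lie next to each other. The acute phase serum amyloid genes SAA1 (chr11:18266260-18269977, plus strand) and SAA2 (chr11:18239223-18248668, minus strand) neighbour the constitutive SAA4 (chr11:18231355-18236802, minus strand), and a readthrough gene, SAA2-SAA4, overlaps both SAA2 and SAA4 on the same strand. The orosomucoid genes ORM1 (chr9:114323098-114326479) and ORM2 (chr9:114329869-114333251) are in tandem on the plus strand, and LCN2 (chr9:128149071-128153453, plus strand) lies farther along the same chromosome. The other members are HP (chr16:72054505-72061055, plus strand), CRP (chr1:159712289-159714589, minus strand), LBP (chr20:38346482-38377013, plus strand) and HPX (chr11:6431049-6442617, minus strand). No exon of a member's canonical transcript overlaps an annotated exon on the opposite strand. Overlap of whole gene spans was not checked.

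The stretches upstream of the RefSeq start are shown for LCN2, the member that was higher without overlap, and for SAA4 and HPX, both lower. The RefSeq promoter table (GRCh38.p14) held 5 of the 10 members, which were LCN2, SAA4, ORM1, CRP and HPX, and not SAA1, SAA2, HP, ORM2 or LBP. The stretches run 5′ to 3′ on the gene's own strand, chr9:128149265-128149440 (plus) for LCN2, chr11:18236803-18237052 (minus) for SAA4 and chr11:6441067-6441237 (minus) for HPX, and parts that overlap annotated exons were left out. For LCN2 and HPX the RefSeq start lies downstream of the GENCODE gene start, so these stretches are inside the gene spans given above. Capitals mark matches to the motifs searched.
LCN2: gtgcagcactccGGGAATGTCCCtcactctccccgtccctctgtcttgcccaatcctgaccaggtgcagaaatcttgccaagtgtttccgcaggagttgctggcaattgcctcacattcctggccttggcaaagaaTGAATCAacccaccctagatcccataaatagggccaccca
SAA4: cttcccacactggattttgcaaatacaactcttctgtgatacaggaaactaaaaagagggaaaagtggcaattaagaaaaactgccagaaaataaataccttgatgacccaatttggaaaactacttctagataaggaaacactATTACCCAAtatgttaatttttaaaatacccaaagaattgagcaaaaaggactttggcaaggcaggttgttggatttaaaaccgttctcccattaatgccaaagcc
HPX: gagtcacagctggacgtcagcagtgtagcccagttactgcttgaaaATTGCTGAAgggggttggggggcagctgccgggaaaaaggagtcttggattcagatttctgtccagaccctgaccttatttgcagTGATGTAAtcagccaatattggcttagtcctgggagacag

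The motifs, chosen after the sequences had been seen, were searched on both strands in the 250 bases before the RefSeq start. The NF-kB type motif (GGG, any 5 bases, CC) was in 54.4% of all 35116 promoters in the table. TTNNGNAAT, a C/EBP type motif, was in 9.9%, and TTCNNNGAA, a STAT type motif, in 6.6%. TGANTCA, an AP-1 type motif that allows any middle base, was in 6.6%. TGATGNAA, a C/EBP-ATF composite motif, was in 3.1%, and CCACG, a part of the ER stress element, in 33.5%. LCN2 held the NF-kB type motif on both strands in overlapping positions (the plus-strand match 176 to 167 bases before the start) and TGANTCA 52 to 46 bases before it. The TGANTCA match in LCN2 reads TGAATCA, with A in the middle, whereas the AP-1 consensus has G or C there. SAA4 held TTNNGNAAT on the minus strand, 106 to 98 bases before the start. HPX held TTNNGNAAT on the minus strand, 204 to 196 bases before the start, and TGATGNAA 119 to 112 bases before it. Among the members not shown, ORM1 held TTNNGNAAT and the NF-kB type motif in overlapping positions on the minus strand, and CRP held TTNNGNAAT on the plus strand. TTCNNNGAA and CCACG were found in none of the 5 windows. A match is a run of letters and not a measured site, and no binding was measured here.

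LCN2, also called neutrophil gelatinase-associated lipocalin, binds bacterial siderophores and so withholds iron from bacteria. From replicate 1 to replicate 5, control held 1, 2, 0, 3 and 1 counts, and tunicamycin held 76, 71, 80, 36 and 34 counts. After normalization the control libraries held 0.861, 1.78, 0, 2.69 and 1.02, and the tunicamycin libraries 64.2, 70.5, 75.6, 49.5 and 68.6. Every tunicamycin library was above every control library. The raw counts were lower in tunicamycin replicates 4 and 5, the smaller libraries. After normalization replicate 5 (68.6) lay within the range of replicates 1 to 3, whereas replicate 4 (49.5) was still the lowest tunicamycin library.

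The LCN2 mean was 1.27 ± 1.01 in control and 65.7 ± 9.93 in tunicamycin (SD, n = 5). The summed counts, 7 against 297, gave a depth-adjusted ratio of 52.4 with an exact 95% interval of 25.1 to 131 that covers counting error only. The fitted log2 fold change was 5.57 (SE 0.34), the value ranked 6 from the top among tested genes. It depends on the prior count because the control level was near 0. Within replicate pairs, the log2 ratio with a pseudocount of 0.5 ranged from 3.97 to 7.25, higher in 5 of 5. Among the tested genes, LCN2 was at level percentile 0.503 in control and at percentile 45.4 in tunicamycin. It passed the count filter through its tunicamycin libraries alone. Its control place near the bottom of the tested genes therefore follows from that filter, and genes below the filter are not ranked.

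**Figure D1:**
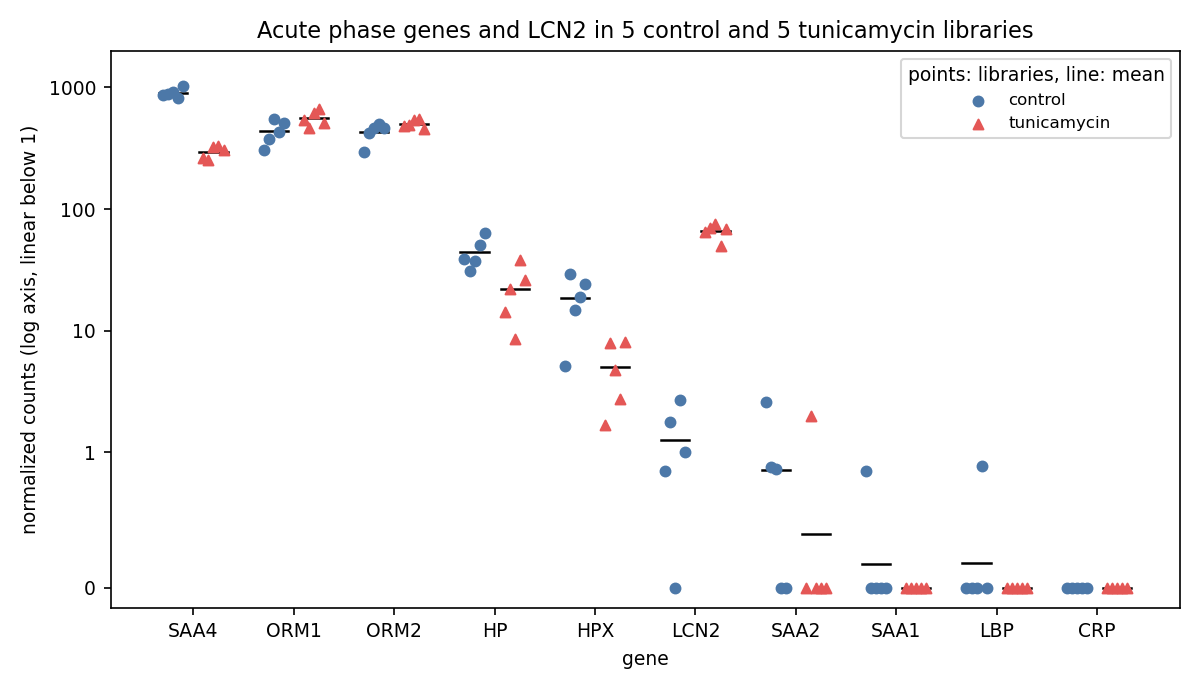
Normalized counts of the 10 members in each library (points, 5 control and 5 tunicamycin) with the mean (line), on an axis that is linear up to 1 and logarithmic above. LCN2 and SAA4 are the members whose groups are separated, with LCN2 at 0 to 2.69 in control and 49.5 to 75.6 in tunicamycin, while CRP is at 0 throughout.

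The genes whose profile over the 10 libraries was most like that of LCN2 were sought among 9706 tested genes whose average reached 20 normalized counts, by the root mean square difference of log2 values relative to each gene's own control mean. The nearest were P2RX1 (an ATP-gated ion channel) at 1.15, IGFBP1 (an IGF-binding protein secreted by the liver) at 1.24, KLHDC7B at 1.30, MEI1 at 1.31 and F2RL1 (a protease-activated receptor) at 1.39, in log2 units. Their log2 fold changes were 5.42 for P2RX1, 4.09 for IGFBP1, 6.58 for KLHDC7B, 3.75 for MEI1 and 3.94 for F2RL1. IGFBP1 differed in level, with a mean of 137 normalized counts in control and 2338 in tunicamycin, whereas P2RX1 rose from 1.94 to 91.1. In control the LCN2 profile rests on 0 to 3 counts per library and on the pseudocount of 0.5. The likeness therefore mainly reflects the size of the rise, and shared regulation was not tested.

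The serum amyloid A genes encode small apolipoproteins of high-density lipoprotein, of which SAA1 and SAA2 are the inducible forms and SAA4 the constitutive one. SAA4 had 858, 875, 913, 815 and 1022 normalized counts in the control libraries, in replicate order, against 264, 252, 322, 328 and 305 under tunicamycin. All tunicamycin libraries lay below all control libraries. The mean was 897 ± 78.2 in control and 294 ± 34.4 in tunicamycin (SD, n = 5), a 3.05-fold lower level (log2 fold change -1.61, SE 0.10). The pair ratios ranged from -1.79 to -1.31 on the log2 scale, so that the decrease had a similar size in each of the 5 replicate pairs. SAA4 was the most abundant member in control, at level percentile 95.1 of the tested genes, and it was at percentile 80.8 in tunicamycin.

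SAA2 had 3, 1, 1, 0 and 0 counts in control and 0, 2, 0, 0 and 0 in tunicamycin. SAA1 had 1 count, in control replicate 1, and none in the other libraries. Neither gene was tested and no fold is given. SAA1 and SAA2 share 174 of 451 windows of 50 bases (38.6%) in the last 500 bases of their transcripts, where reads of one could be assigned to the other or left uncounted, and their identity there is 95.4%. SAA4 shares no such window with SAA1 or SAA2, but it overlaps the readthrough gene SAA2-SAA4 on the same strand, so how reads in the overlap were assigned is uncertain for SAA4 too.

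ORM1 and ORM2 encode orosomucoid, or alpha-1-acid glycoprotein, a heavily glycosylated plasma lipocalin that binds drugs. ORM1 had 303.0, 379, 545.9, 434 and 510.3 normalized counts in control and 535, 463, 616, 662 and 512.5 in tunicamycin. The groups overlapped, and control replicate 1 was the lowest library for both orosomucoid genes. The ORM1 mean was 434 ± 98.2 in control and 558 ± 80.3 in tunicamycin (SD, n = 5), a log2 fold change of 0.36 (SE 0.14) with pair ratios from 0.0063 to 0.82. Its threshold call was lost with scaling by library size only, with the default filter minimums, and when any of 6 libraries was left out (control replicates 1, 2 and 4 and tunicamycin replicates 3, 4 and 5).

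ORM2 had 294, 421, 462, 498 and 466 normalized counts in control and 481, 492, 542, 547 and 458 in tunicamycin. The groups overlapped, with tunicamycin replicate 5 below 3 of the control libraries. The mean was 428 ± 80.0 against 504 ± 39.0 (SD, n = 5), a log2 fold change of 0.24 (SE 0.12) that was not called without the replicate block and was called with it. Without control replicate 1 the log2 fold change was 0.26 for ORM1 and 0.13 for ORM2. The pair shares 162 of 451 windows (35.9%), with 93.9% identity over the last 500 bases, so how counts were split between them is uncertain. Their summed counts gave a log2 fold change of 0.30, and ORM1 took 50.2% ± 3.23 of the sum in control and 52.4% ± 2.33 in tunicamycin (SD, n = 5).

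HP encodes haptoglobin, which captures free haemoglobin, and HPX encodes hemopexin, which captures free haem. HP had 38.7, 31.2, 37.6, 51.1 and 63.0 normalized counts in control and 14.4, 21.8, 8.50, 38.5 and 26.2 in tunicamycin. The tunicamycin library was below the control library in all 5 pairs, but tunicamycin replicate 4 lay within the control range. The HP mean was 44.3 ± 12.7 against 21.9 ± 11.5 (SD, n = 5), with a log2 fold change of -1.09 (SE 0.30) and pair ratios from -2.08 to -0.40. HP shares 183 of 451 windows (40.6%) with its neighbour HPR, so its counts could include or lack reads from that gene. HPR had at most 3 counts in a library, and the summed counts of HP and HPR gave a log2 fold change of -1.09 as well. Reads left uncounted because they match both genes would not be in that sum.

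HPX had 5.16, 29.4, 14.9, 18.8 and 24.4 normalized counts in control and 1.69, 7.94, 4.72, 2.75 and 8.07 in tunicamycin. Control replicate 1 fell within the tunicamycin range, and the other control libraries were above it. The mean was 18.5 ± 9.29 against 5.03 ± 2.92 (SD, n = 5), with a log2 fold change of -1.93 (SE 0.48). The summed counts, 101 against 21, gave a ratio of 0.257 with an exact 95% interval of 0.152 to 0.414, which covers counting error only and not the spread between libraries. All 5 pairs were lower in tunicamycin, by 1.37 to 2.57 on the log2 scale. HPX had too few counts to be tested under the default filter minimums.

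**Figure D2:**
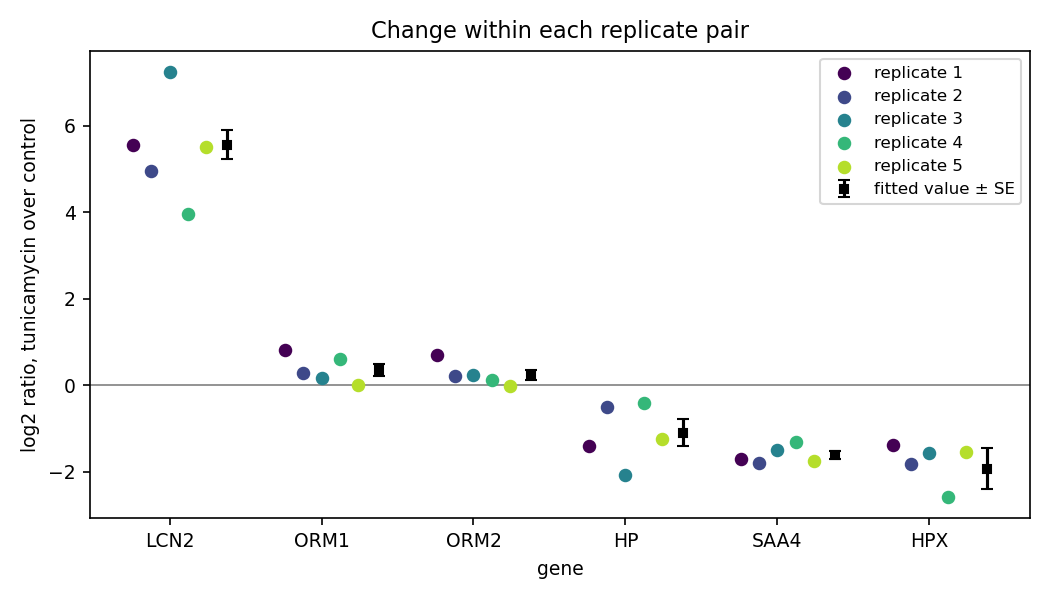
Log2 ratio of tunicamycin over control in each of the 5 replicate pairs (points, pseudocount 0.5) for the 6 tested members, with the fitted log2 fold change and its standard error. LCN2 lies between 3.97 and 7.25, SAA4, HP and HPX are below 0 in all 5 pairs, and ORM2 has 1 pair below 0.

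CRP, the pentraxin that binds phosphocholine on microbes, had 0 counts in every library. In a library taken alone, a count of 0 leaves room for a true level of up to 3 counts. With CRP at 0 in every library, the room for its mean level is smaller than that. LBP, the lipopolysaccharide-binding protein that hands endotoxin to CD14, had 1 count, in control replicate 4. No library of either condition held more than 3 counts of CRP, LBP, SAA1 or SAA2, and at this depth a decrease or a small rise of these genes could not be detected.

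The spread between libraries differed among the tested members. The biological coefficient of variation was 11.3% for SAA4, 13.5% for ORM2, 15.6% for ORM1, 15.8% for LCN2, 27.0% for HP and 37.9% for HPX, and its median over tested genes was 15.1%. The widest spread was that of HP and HPX, which apart from LCN2 were the least abundant of the 6 in control.

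The members' summed level was 1824 ± 225 normalized counts in control and 1449 ± 140 in tunicamycin (SD, n = 5). In control, SAA4 made up 49.5% ± 4.78 of that sum and the orosomucoids 46.9% ± 4.70. In tunicamycin, SAA4 made up 20.3% ± 1.14 and the orosomucoids 73.2% ± 1.69. The ranges of the SAA4 share, 44.8% to 57.1% and 19.2% to 22.1%, did not overlap, and the ratio of SAA4 to the 2 orosomucoids went from 1.07 ± 0.225 to 0.278 ± 0.0215. LCN2 made up 0.0713% in control and 4.59% ± 0.90 in tunicamycin. LCN2 was below HP in every control library and above it in every tunicamycin library, with a mean ratio of LCN2 to HP of 0.0296 in control and 4.10 ± 2.91 in tunicamycin.

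**Figure D3:**
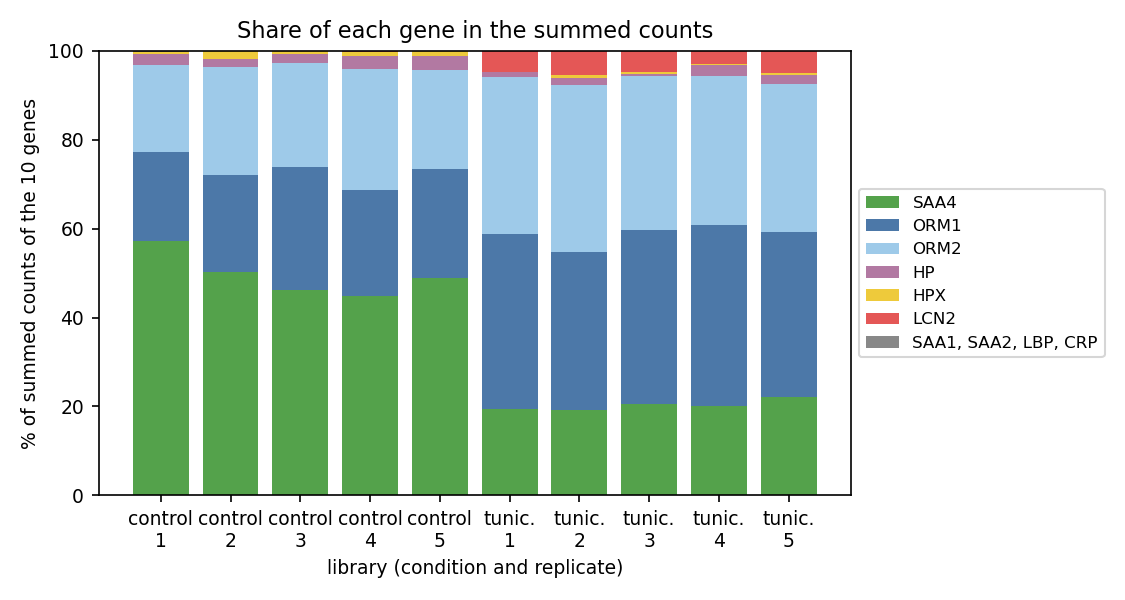
Percent of the members' summed normalized counts taken by each member in every library. SAA4 takes 44.8% to 57.1% in control and 19.2% to 22.1% in tunicamycin, and LCN2 is visible in the tunicamycin libraries alone.

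Of the 22 other positive acute phase genes 17 were tested, and 2 rose and 9 fell (edgeR's quasi-likelihood test, adjusted p under 0.05 over all genes tested). The called share was 64.7%, beside 34.2% over all tested genes. The median log2 fold change was -0.62, beside -0.0033 over all tested genes. CP, the ferroxidase ceruloplasmin, fell from 38.5 ± 8.98 to 11.6 ± 7.39 normalized counts (SD, n = 5; log2 fold change -1.66, SE 0.35, edgeR adjusted p = 0.00112). FGA, the fibrinogen alpha chain, fell from 1451 to 615 (log2 fold change -1.23, SE 0.09, edgeR adjusted p = 5.19e-09). The others that fell were A2M, C3, FGB, FGL1, IL1RN, ITIH3 and LRG1, and C4BPA was among those that rose, where these names were added after their values had been seen. SERPINA3, HAMP, APCS, PTX3 and SERPING1 had too few counts to be tested.

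Of 13 negative acute phase genes 12 were tested, 6 fell and none rose, with a median of -0.62. Those 6 were 50% of the tested genes of the list, beside 34.2% called over all tested genes. The other 6 did not pass, among them ALB (albumin) at a log2 fold change of 0.04 and RBP4 (the plasma retinol carrier) at 0.02, both named after their values had been seen. DESeq2 also called 6, and without adjustment 7 passed 0.05 in edgeR, in either direction. SERPINA7, the thyroxine-binding globulin, fell from 404 to 128 normalized counts (log2 fold change -1.66, edgeR adjusted p = 2.93e-08). TTR, the thyroid hormone and retinol carrier transthyretin, fell from 751 to 370 (log2 fold change -1.02, edgeR adjusted p = 5.38e-08), and APOA1, the main apolipoprotein of high-density lipoprotein, from 8973 to 4781 (log2 fold change -0.91, edgeR adjusted p = 8.92e-08). The positive and the negative list therefore had about the same median, and SAA4, HP and HPX had the sign of that median. Several genes of both lists are also hepatocyte markers. The sum of those markers was lower in tunicamycin, though not every marker fell, as given above. The part of that in these differences was not tested.

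**Figure D4:**
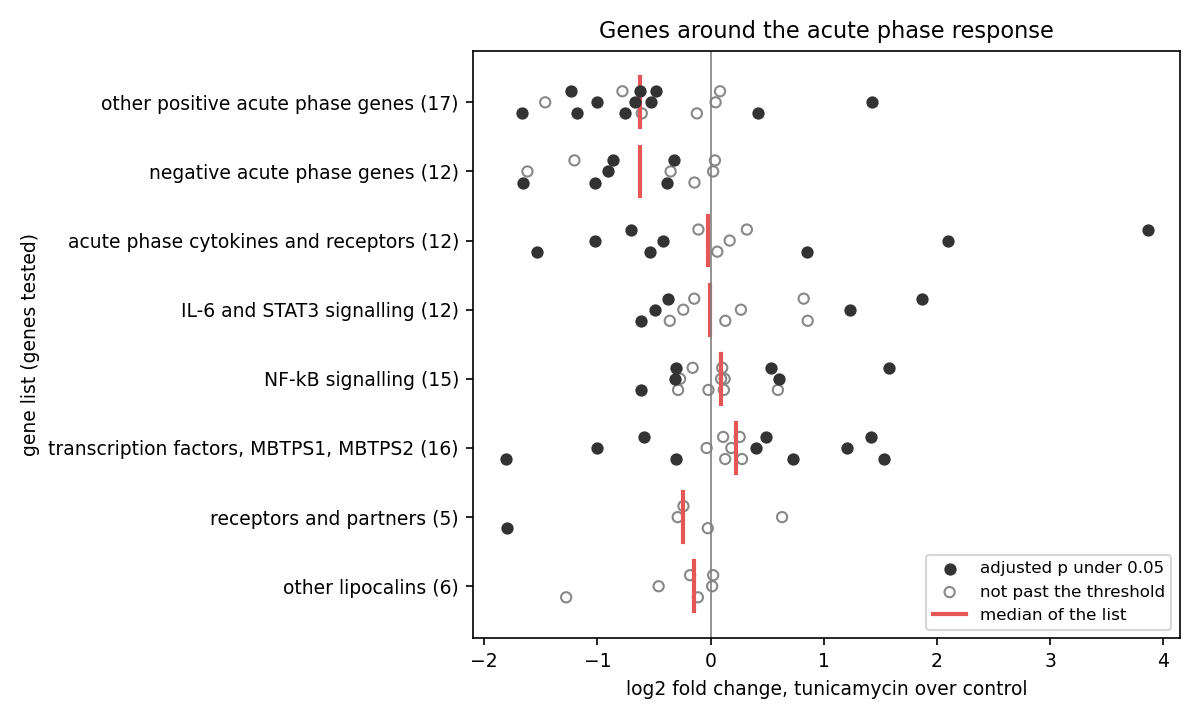
Log2 fold change of tunicamycin over control for each tested gene of the 8 lists (points, number tested in parentheses), with the list median and with called and uncalled genes distinguished. Both acute phase lists have a median of -0.62, and the medians of the signalling lists lie between -0.02 and 0.22.

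Of the cytokine genes, IL6, IL1A, IL1B, TNF, OSM and IL22 were scarcely expressed and were not tested for lack of counts. Of 19 cytokine and receptor genes 12 were tested, 3 rose and 5 fell, a called share of 66.7% beside 34.2% over all tested genes. OSMR, the oncostatin M receptor subunit, rose from 88.9 ± 23.2 to 161 ± 50.5 normalized counts (SD, n = 5; log2 fold change 0.85, edgeR adjusted p = 0.00478). The other risers, LIF and IL11, were named after their values had been seen and had low counts. LIF had a mean of 1.24 in control and 20.6 in tunicamycin (log2 fold change 3.86, SE 0.70). IL11 had means of 2.45 and 10.2 (log2 fold change 2.10, SE 0.58). For both genes the groups overlapped. IL1R1, the signalling IL-1 receptor, fell from 140 ± 14.8 to 47.9 ± 13.7 (SD, n = 5; log2 fold change -1.54, edgeR adjusted p = 1.15e-06), and IL22RA1, the IL-22 receptor subunit, from 61.3 to 29.7 (log2 fold change -1.02, edgeR adjusted p = 0.00013). The IL-6 receptor genes were not called, with log2 fold changes of 0.06 for IL6R and 0.17 for IL6ST (edgeR adjusted p = 0.714 and 0.327).

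Among 12 IL-6 and STAT3 signalling genes, all tested, 2 rose and 3 fell. The called share, 41.7%, was near the 34.2% over all tested genes, so nothing is read from the count. STAT3, the transcription factor of IL-6 signalling, fell from 594 ± 59.6 to 385 ± 44.8 normalized counts (SD, n = 5; log2 fold change -0.62, edgeR adjusted p = 7.69e-05), lower in all 5 pairs. PIAS3, an inhibitor of STAT3, rose from 13.5 to 31.1 (log2 fold change 1.23, edgeR adjusted p = 0.00123), a call that was lost after thinning every library to the smallest total (log2 fold change 0.79, edgeR adjusted p = 0.0712). BCL3, a nuclear IkB family member, fell from 91.1 to 65.2 (log2 fold change -0.49, edgeR adjusted p = 0.0272), a call lost when any of 6 libraries was left out (control replicates 1, 3 and 4 and tunicamycin replicates 2, 3 and 4). SOCS3, a feedback gene of STAT3, had means of 8.87 and 6.77 and was not called (edgeR adjusted p = 0.715).

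Among 16 NF-kB genes, 15 were tested, 3 rose and 3 fell. That called share, 40%, was also near the 34.2% over all tested genes, and nothing is read from the count. CHUK, the IKK alpha kinase, rose from 40.5 to 122 normalized counts (log2 fold change 1.57, edgeR adjusted p = 2.46e-05). TNFAIP3, the feedback inhibitor A20, fell from 90.0 to 58.6 (log2 fold change -0.61, edgeR adjusted p = 0.0115). RELB, an NF-kB subunit, rose from 28.4 to 42.0 (log2 fold change 0.60, edgeR adjusted p = 0.0411), a call lost with library size only, after thinning, and when any of 6 libraries was left out (control replicates 1, 2 and 4 and tunicamycin replicates 1, 2 and 3). NFKBIA, the IkB alpha inhibitor and an NF-kB target, had a log2 fold change of -0.27 (edgeR adjusted p = 0.0577). It was called with the replicate block at -0.28 (edgeR adjusted p = 0.0185), and also with library size only, with the default filter minimums, without control replicate 1 and without tunicamycin replicate 1. NFKBIZ, a nuclear IkB that takes part in LCN2 transcription, had means of 56.2 and 60.2 and was not called (edgeR adjusted p = 0.681).

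The last list holds transcription factors together with MBTPS1 and MBTPS2, the Golgi proteases that cleave ER-bound factors such as CREB3L3 and ATF6. Of these 16 genes, all tested, 6 rose, MBTPS2 among them, and 4 fell, a called share of 62.5% beside 34.2% over all tested genes. CREB3L3 fell from 82.3 ± 13.6 to 22.8 ± 6.04 normalized counts (SD, n = 5; log2 fold change -1.81, SE 0.19, edgeR adjusted p = 6.89e-07). CEBPB, the C/EBP factor long known as a nuclear factor of IL-6 responses, rose from 145 to 419 (log2 fold change 1.53, SE 0.12, edgeR adjusted p = 9.46e-09). DDIT3, the ER stress factor CHOP, rose from 159 to 424 (log2 fold change 1.42, edgeR adjusted p = 2.1e-08). CEBPD was not called, at 81.6 and 93.4 (edgeR adjusted p = 0.387). HNF4A, a factor of hepatocyte identity, had a log2 fold change of 0.26 (edgeR adjusted p = 0.0586). It was called with the replicate block (edgeR adjusted p = 0.0165), and also when control replicate 4 or 5 or tunicamycin replicate 1 or 2 was left out. These are transcript levels, and cleavage of CREB3L3 and the activity of the factors were not measured.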

How the data were processed

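HepG2 cells with and without tunicamycin were profiled in 10 libraries (Lexogen QuantSeq 3′, FWD). The authors deposited raw counts per gene, made with the nf-core RNA-Seq pipeline on hg19 and Ensembl transcript definitions with its default settings. The aligner, the counting program and the strand setting are not named in the sources used here. Every sample column was used and no row lacked a gene.

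From the counts, genes were filtered with filterByExpr (minimum count 2, minimum total 10), scaled by TMM and tested with edgeR 4.0.16 in R 4.3.3 (glmQLFit and glmQLFTest, condition as the only term). P-values were adjusted by Benjamini-Hochberg over all 12733 genes tested, at 0.05. Standard errors were obtained as the size of the log2 fold change over the root of the F value. The test was checked on simulated data. Alternatives were DESeq2 1.42.0, its size factors, library size only, other filters, the replicate block, removal of mitochondrial genes, thinning, summed paralogs and leaving out each library.

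Replicates were done on separate days according to the series text, so libraries of the same replicate number were taken as pairs. The sample labels give the number and no day. The correlations of paired deviations from the group means over 9707 genes were 0.36, 0.02, 0.076, 0.162 and 0.137.

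Members and lists were chosen with earlier results of these data known. Named were all members, the 3 called genes of each list with the largest absolute log2 fold change and at least 20 normalized counts on average, 11 regulators whatever their values (IL6R, IL6ST, STAT3, SOCS3, CEBPB, CEBPD, NFKBIA, NFKBIZ, CREB3L3, IL1R1 and HNF4A), and the 5 genes most like LCN2. An item that this rule names is not reported here. Symbols listed more than once (CFB, LCN6) were taken at the GENCODE identifier. Annotation came from GENCODE release 44 and promoters from RefSeq, read with Biopython 1.88.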

Additional observations from a re-analysis of the deposited data

Results flagged for a closer look

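In 3 of 70 groups of 5 libraries, 1 library stood apart from the other 4 by Dixon's test at 95%, where chance alone gives about 3.5. CEBPD was 64.6 normalized counts in control replicate 1 and 82.3 to 87.5 in the other control libraries. IL6R was 299.9 in control replicate 5 and 224.7 to 239.2 in the others. PIAS3 was 8.03 in control replicate 2 and 14.0 to 16.3 in the others. No member's library stood apart in this way.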

How the results depend on the processing

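The log2 fold changes of all 6 tested members kept their sign under every alternative that could be computed. The ranges with 1 library left out were 5.26 to 6.004 for LCN2, -1.65 to -1.55 for SAA4, -1.39 to -0.86 for HP, -2.22 to -1.65 for HPX, 0.26 to 0.46 for ORM1 and 0.13 to 0.31 for ORM2. Called members numbered 5, but 3 with the default filter minimums, 4 with library size only, 6 with the replicate block, and 4 to 5 with 1 library left out. Over all tested genes the calls numbered 4353, with the replicate block 4811, and 3806 to 4488 with 1 library left out. Thinning to the smallest library left 3 calls among the IL-6 and STAT3 genes (range with 1 library left out 3 to 6, with 3 calls without control replicate 1, control replicate 3 or tunicamycin replicate 2) and 3 among the NF-kB genes (range 4 to 5). Receptors and partners had 2 calls with library size only and 2 with the replicate block (range 1 to 2, with 2 calls without control replicate 1 or tunicamycin replicate 4), and the other lipocalins 1 with DESeq2 and 1 with library size only. The cause of these differences was not tested. Apart from ORM2, NFKBIA, HNF4A, LIFR, TYK2, NFKB1 and SCARB1, which gained a call, the replicate block changed no call among the members and the listed genes. Summed SAA1 and SAA2 had too few counts to be tested. Low counts limit LCN2 in control and HPX, HP, SAA1, SAA2, CRP and LBP in both conditions.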

Other observations

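The receptors and partners of the member proteins mostly had too few counts to be tested. Of 15 genes, 5 were tested and 6 were at 0 in all libraries. Of the tested ones 20% were called, beside 34.2% over all tested genes. The haemoglobin-haptoglobin receptor CD163, the endotoxin receptor genes TLR4, LY96 and CD14, and the LCN2 receptor genes SLC22A17 and LRP2 were among the genes not tested. HMOX1, the haem oxygenase that degrades haem taken up with HPX, fell from 373 ± 79.5 to 106 ± 11.7 normalized counts (SD, n = 5; log2 fold change -1.80, SE 0.14, edgeR adjusted p = 1.02e-08), below the control range in all 5 tunicamycin libraries. With the replicate block SCARB1, a lipoprotein receptor, was called as well, which made 2 calls.

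No lipocalin outside LCN2, ORM1 and ORM2 was called in edgeR's quasi-likelihood test. Of 16 such genes, 6 were tested and 9 were at 0 in all libraries. Over all tested genes 34.2% were called. At an unadjusted p under 0.05 there was 1 gene, and DESeq2 called 1, AMBP, the precursor of alpha-1-microglobulin. AMBP had 5047 ± 388 normalized counts in control and 4452 ± 156 in tunicamycin (SD, n = 5; log2 fold change -0.18, edgeR adjusted p = 0.0863). RBP4 is in this list and also among the negative acute phase genes.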
